A study of Mus musculus with 12 samples.

Results

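Thyroid hormone reaches muscle cells mainly as thyroxine, which carriers bring across the membrane and a deiodinase in the cell converts to triiodothyronine. Triiodothyronine then binds nuclear receptors that sit on DNA with retinoid X receptors and switch between corepressors and coactivators. In the muscle lineage this supply of hormone is known for its part in myoblast differentiation and in the contractile and metabolic genes of mature fibres.

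The genes described here were 5 genes of this pathway, taken from the table by name. They were Dio2, the deiodinase that activates thyroxine, Slc16a10, a membrane carrier of aromatic amino acids and thyroid hormones, Thra and Thrb, the genes of the hormone receptors, and Klf9, a transcription factor gene known to be induced by triiodothyronine. The set was chosen by the measured log2 fold change of Dio2 in siCCNF against siCONTROL, a large fall, so differences between these 2 groups are given as a description. In the table of 54532 genes, 15122 had enough reads to be tested, among them 4 of the 5. Thrb was not.

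Polyadenylated RNA was sequenced from C2C12 cells, an immortal line of mouse myoblasts kept in growth medium, in 12 libraries. All 4 groups, with 3 biological replicates each, received 30 nM siRNA for 48 h. The groups were siCONTROL, siKEAP1, siCCNF and siKEAP1/siCCNF, the last receiving siRNAs against both genes. Keap1 encodes the receptor that delivers the transcription factor NRF2 to a ubiquitin ligase, and Ccnf encodes cyclin F, the substrate receptor of another. The comparison of the groups asks how loss of each gene, alone and together, altered the transcriptome. No group was treated with thyroid hormone, and the measurement is of RNA, not of deiodinase activity or receptor protein.

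Libraries held 18464209 to 37743198 counts. Keap1 averaged 87.8 CPM (counts scaled to library totals adjusted by TMM) in siCONTROL, 12.6 in siKEAP1, 85.1 in siCCNF and 24.1 in siKEAP1/siCCNF. Ccnf averaged 81.1, 59.4, 20.5 and 24.5 CPM in the same order. Ccnf thus also fell after siKEAP1 alone (log2 fold change -0.45, SE 0.073, adjusted p = 0.000258 from edgeR). The part of this fall in the siKEAP1 results was not tested. Keap1 was less depleted in siKEAP1/siCCNF (22.2 to 27.0 CPM) than in siKEAP1 (12.3 to 12.8 CPM). Comparisons between these groups hold that difference as well as the loss of CCNF, and its part was not tested. The 7 myoblast markers checked were detected in every library, and 8 markers of other cell types summed to at most 1.58 CPM. siCONTROL replicate 1 and siKEAP1/siCCNF replicate 3 deviated from their groups with gene length (r = -0.305 and -0.276 across genes), so results are also given without both where they matter.

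Some features of Dio2 are visible in its sequence. DIO2 is a selenoprotein, and its reading frame holds TGA codons read as selenocysteine, the first of which is known to lie in the active site. In the GRCm38 annotation the gene lies on the minus strand at chr12:90724552-90738438, and both such codons are in exon 2 of 2, at codons 130 and 263 of the 266 before the stop. Its promoter in RefSeq (GRCm38.p6) holds a full cAMP response element, which is shown because cAMP signalling is the best known inducer of Dio2. The capitals mark the TGA codons and the TGACGTCA element.
Dio2 first selenocysteine codon, chr12:90729811-90729837, minus strand: ggttcagccaccTGAccacctttcact
Dio2 second selenocysteine codon, chr12:90729412-90729438, minus strand: ttcagcaagagaTGAattctagattag
Dio2 promoter, chr12:90739118-90739141, minus strand: tttctcaaTGACGTCAagatcttt

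The element starts at position -95 from the RefSeq start site. Windows of 300 bases were searched on both strands, and TGACGTCA occurred in 588 of 32851 promoters (1.79%). Of the 5 genes, 4 had RefSeq promoters, Thrb with 2 of them, and Thra had no entry. The antioxidant response element core TGACNNNGC, bound by NRF2 and sharing the letters TGAC with the cAMP element, occurred in 12.4% of all promoters and in 1 of the Thrb windows. AGGTCA, the unit that hormone receptors bind, occurred in 16.3% of all promoters and in the same Thrb window. The spaced direct repeat of it known as DR4 was found in none of the windows of these genes and in 0.0152% of all promoters. The Dio2 window had 44.7% G and C and 3 CpG, against medians of 52.7% and 7 over all promoters, whereas those of Slc16a10 and Klf9 had 26 and 28 CpG. These matches are of letters only.

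Dio2 was the deiodinase that C2C12 cells expressed. Dio1, the deiodinase of liver and kidney, had at most 1 count in any library, and Dio3, which inactivates the hormone, had at most 6. In siCONTROL cells Dio2 stood at 10.6, 10.3 and 8.28 CPM. It stood at 1.35, 0.891 and 1.36 CPM in siKEAP1 cells. In siCCNF cells it stood at 0.371, 0.894 and 0.510 CPM, from 13 to 23 counts. With both siRNAs it stood at 0.754, 0.524 and 0.571 CPM.

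Every depleted library was thus below every siCONTROL library, and the siCCNF and siKEAP1/siCCNF libraries overlapped. Group means were 12.3% of siCONTROL after siKEAP1, 5.92% after siCCNF and 6.34% after both, as fitted. In log2 units the differences from siCONTROL were -3.02 (SE 0.25), -4.08 (SE 0.27) and -3.98 (SE 0.27). No test is attached to these, because they share libraries with the comparison by which Dio2 was chosen. After siCCNF, Dio2 had the 12th largest fall among the genes tested. Of all genes tested, 28.6% were lower after siCCNF without overlap between the groups. Such a share was not counted for the other comparisons, so separation of libraries there is a description only.

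The comparison of siKEAP1/siCCNF with siKEAP1 shared no library with that choice, and Dio2 was tested there. Dio2 fell to 51.5% of its siKEAP1 level (log2 fold change -0.96, SE 0.32, adjusted p = 0.0222 from edgeR). The 3 siKEAP1/siCCNF libraries were below the 3 siKEAP1 libraries, the nearest pair being 0.754 and 0.891 CPM. Counts were low, at 13 to 19 in siKEAP1/siCCNF and 22 to 31 in siKEAP1. The call was lost when 1 library was left out in 4 of 12 cases, namely siKEAP1 replicate 1 (log2 fold change -0.87, adjusted p = 0.069 from edgeR), siKEAP1 replicate 3 (-0.85, 0.0744), siKEAP1/siCCNF replicate 2 (-0.84, 0.0805) and siKEAP1/siCCNF replicate 3 (-0.91, 0.0535). It was also lost with limma on log2(FPKM + 1), a scale that understates the change of low genes (-0.12, adjusted p = 0.115). Without both libraries that deviated with gene length it was -0.91 (adjusted p = 0.0457 from edgeR).

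**Figure D1:**
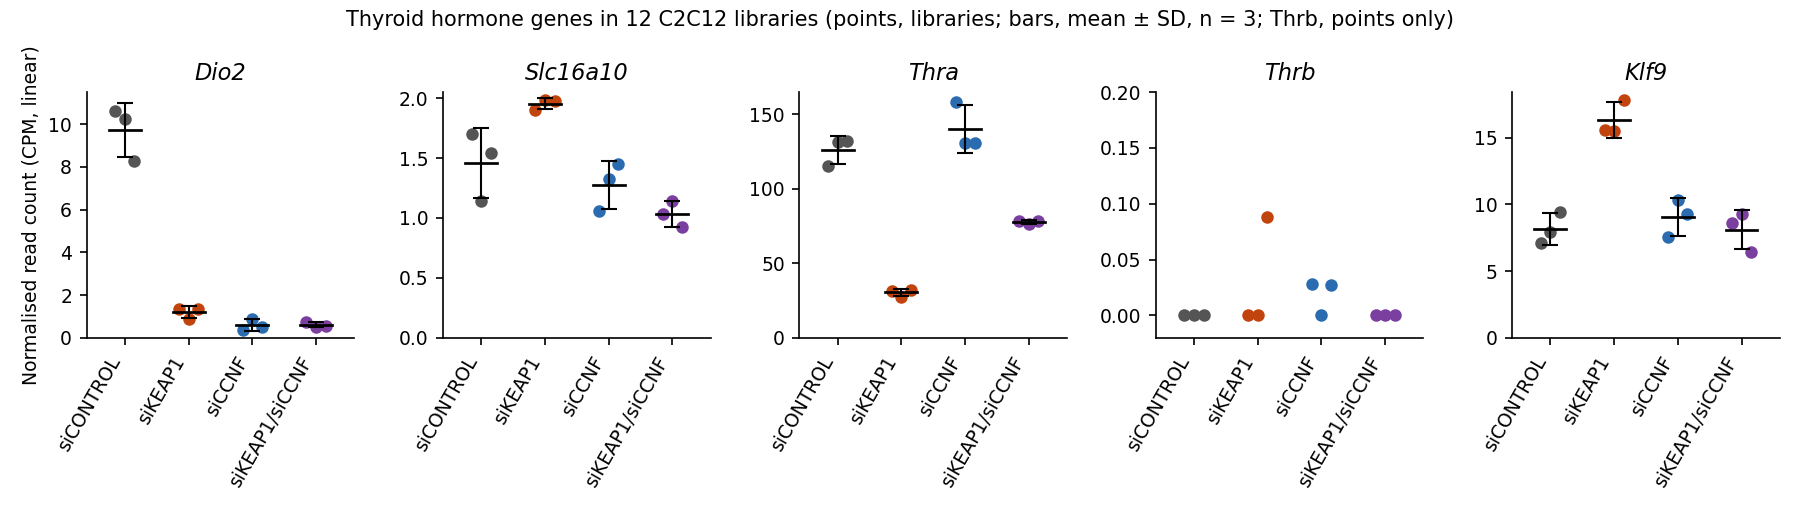
Normalised read counts (CPM, linear axes) of Dio2, Slc16a10, Thra, Thrb and Klf9 in the 4 siRNA groups, with 1 point per library and, except for Thrb, bars for the mean and SD (n = 3). Dio2 lies between 8.28 and 10.6 CPM in siCONTROL and at 1.36 CPM or less in every other library, Thra is lowest in siKEAP1, Klf9 is highest in siKEAP1, and Thrb is at or near 0 throughout.

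Thra, on the plus strand at chr11:98740638-98769006, carried nearly all the receptor RNA. Its siCONTROL libraries had 115, 131 and 132 CPM. Its siKEAP1 libraries had 31.5, 27.7 and 32.1 CPM. Its siCCNF libraries had 158, 131 and 131 CPM, overlapping siCONTROL. Its siKEAP1/siCCNF libraries had 78.1, 76.1 and 78.7 CPM, between siKEAP1 and the other groups without overlap.

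Thra therefore fell to 24.1% of siCONTROL after siKEAP1 (log2 fold change -2.05, SE 0.093, adjusted p = 4.25e-09 from edgeR). After siCCNF alone its log2 difference from siCONTROL was 0.15 (SE 0.088, not tested). With both depletions it was 2.55-fold above the siKEAP1 level (log2 fold change 1.35, SE 0.092, adjusted p = 8.85e-08 from edgeR) and below siCONTROL (-0.70, SE 0.089, adjusted p = 3.13e-05 from edgeR). It was also below siCCNF (-0.85, SE 0.088, adjusted p = 1.06e-04 from edgeR). The effect of siCCNF on Thra differed between KEAP1-depleted and control cells by 1.20 in log2 units (SE 0.13, adjusted p = 3.74e-05 from edgeR). The part of the weaker Keap1 depletion in siKEAP1/siCCNF was not tested.

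Thra overlaps Nr1d1, the gene of the repressor REV-ERB alpha, which is transcribed from the opposite strand. Whether counting used strand is not given in the sources used here. The exons of all Thra transcripts cover 4614 bases, of which 263 are shared with Nr1d1. Nr1d1 averaged 30.6, 41.5, 14.5 and 14.96 CPM in siCONTROL, siKEAP1, siCCNF and siKEAP1/siCCNF. It rose after siKEAP1 (log2 fold change 0.44, SE 0.091, adjusted p = 0.00171 from edgeR) and was lower in siKEAP1/siCCNF than in siKEAP1 (-1.47, SE 0.094, adjusted p = 4.77e-08 from edgeR), the reverse of Thra in both. The 8 tested genes within 100 kb of Thra had log2 fold changes from -0.47 to 0.44 after siKEAP1.

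Thrb, at chr14:17660261-18038090, was not detectable at this depth beyond stray reads. It had 0 counts in 9 libraries, 2 in siKEAP1 replicate 3, and 1 each in siCCNF replicates 1 and 3. A count of 0 allows up to 3 counts, or 0.0924 to 0.163 CPM depending on the library, and these limits cover counting error only.

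Of the retinoid X receptors that partner them, Rxra and Rxrb were expressed and Rxrg had at most 4 counts. Rxra averaged 173 CPM in siCONTROL and 163 CPM in siKEAP1, and its log2 fold change of -0.08 after siKEAP1 did not pass the test (adjusted p = 0.369 from edgeR). It fell in siKEAP1/siCCNF against siKEAP1 (-0.46, SE 0.067, adjusted p = 8.36e-05 from edgeR). Rxrb passed in neither comparison, with group means of 61.3 to 68.8 CPM.

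Slc16a10, on the minus strand at chr10:40033532-40142258, was a low transcript with 21 to 54 counts. Its siCONTROL libraries stood at 1.70, 1.14 and 1.54 CPM. The siKEAP1 libraries stood at 1.90, 1.98 and 1.97 CPM, just above all siCONTROL libraries, and the log2 fold change of 0.41 (SE 0.22) did not pass the test (adjusted p = 0.167 from edgeR). The siCCNF libraries stood at 1.05, 1.32 and 1.45 CPM, overlapping siCONTROL.

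In siKEAP1/siCCNF cells Slc16a10 stood at 1.03, 1.14 and 0.923 CPM, below every siKEAP1 library. It fell to 53.2% of siKEAP1 (log2 fold change -0.91, SE 0.23, adjusted p = 0.00445 from edgeR). Against siCONTROL its log2 fold change was -0.50 (SE 0.23, adjusted p = 0.102 from edgeR) and against siCCNF -0.30 (SE 0.23, adjusted p = 0.555 from edgeR), neither passing. The difference between the 2 effects of siCCNF was -0.71 (SE 0.32, adjusted p = 0.143 from edgeR).

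Klf9, on the plus strand at chr19:23141226-23166911, was highest in siKEAP1 cells. Its siCONTROL libraries had 7.13, 7.92 and 9.44 CPM. Its siKEAP1 libraries had 15.6, 15.5 and 17.9 CPM. Its siCCNF libraries had 7.56, 10.3 and 9.31 CPM, and its siKEAP1/siCCNF libraries 8.61, 9.27 and 6.46 CPM. The latter 2 groups overlapped siCONTROL, and all siKEAP1 libraries lay above every other library.

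Klf9 rose 2.00-fold after siKEAP1 (log2 fold change 1.00, SE 0.16, adjusted p = 2.14e-04 from edgeR). It fell to 49.9% of that level when CCNF was depleted too (-1.002, SE 0.16, adjusted p = 1.34e-04 from edgeR). Its difference from siCONTROL was then -0.0015 (SE 0.16, adjusted p = 0.995 from edgeR), with a sign that depended on the processing. Against siCCNF it was -0.15 (SE 0.16, adjusted p = 0.695 from edgeR). The effect of siCCNF differed by -1.15 between KEAP1-depleted and control cells (SE 0.22, adjusted p = 0.00262 from edgeR). Here too the part of the weaker Keap1 depletion in siKEAP1/siCCNF was not tested.

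Of the 3 genes tested after siKEAP1 against siCONTROL, Klf9 rose, Thra fell and Slc16a10 did not pass, where 20.4% of all tested genes rose and 20.2% fell. Between siKEAP1/siCCNF and siKEAP1, Thra rose and Dio2, Slc16a10 and Klf9 fell with the double depletion, where 24.1% of all genes rose and 26.9% fell. Against siCONTROL, 1 of the 3 genes tested, Thra, fell in siKEAP1/siCCNF, beside 23.6% of all genes, and 20.6% of all genes rose. Against siCCNF, Thra alone of the 3 passed in siKEAP1/siCCNF, and it fell, beside 2.19% of all genes that fell and 3% that rose. In the difference of effects, Thra was among 10.6% of genes called higher and Klf9 among 10.5% called lower. After siCCNF alone, 22.5% of all genes rose and 25.5% fell in the same fit. Since these comparisons share libraries, they are not independent of each other.

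**Figure D2:**
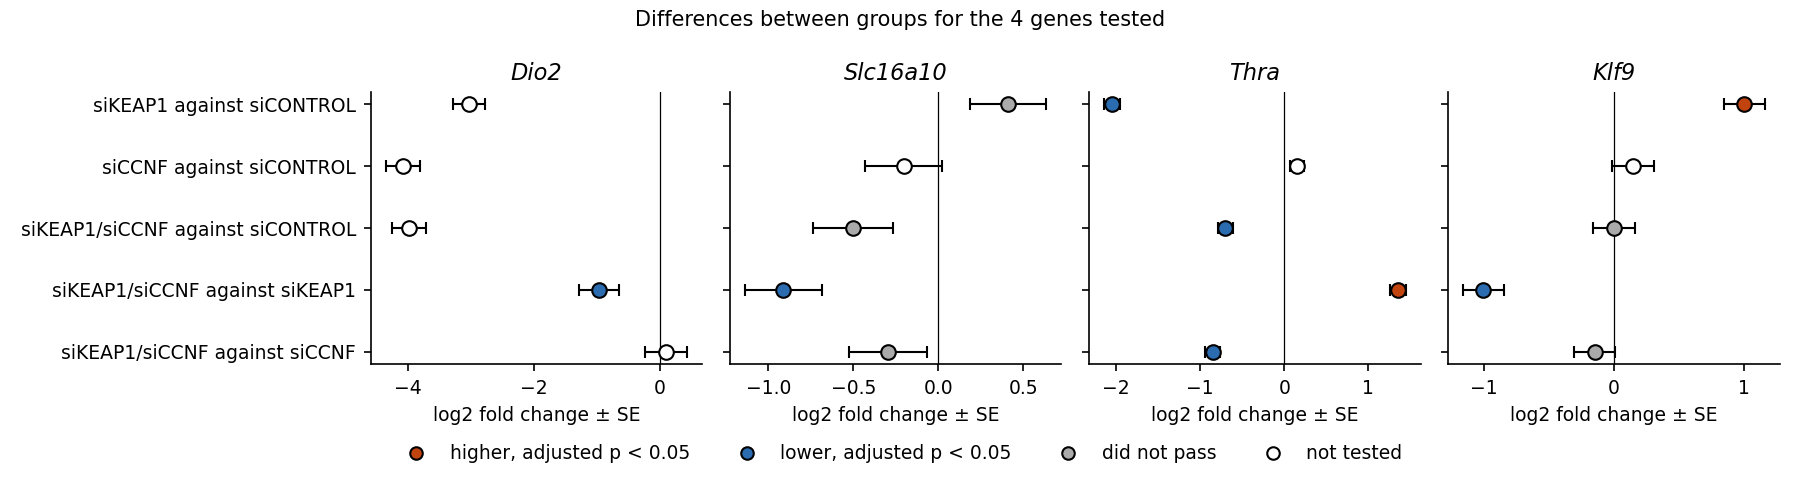
log2 fold changes with standard errors (x axis) of Dio2, Slc16a10, Thra and Klf9 in 5 comparisons of groups, filled red where higher, blue where lower, grey where the test was not passed and white where no test was made. In siKEAP1/siCCNF against siKEAP1, Thra is at 1.35 while Dio2, Slc16a10 and Klf9 are at -0.96, -0.91 and -1.002.

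Levels can be compared between genes per length, as FPKM (fragments scaled to gene length and library total). In siCONTROL cells the order was Thra at 27.1 ± 2.04 FPKM, Klf9 at 2.48 ± 0.351, Dio2 at 1.66 ± 0.218 and Slc16a10 at 0.197 ± 0.0390 (SD, n = 3), with Thrb listed at 0. In siKEAP1 cells Thra was at 6.58 ± 0.526 FPKM and Klf9 at 4.99 ± 0.406, a narrower gap. In siCCNF cells Dio2 was at 0.101 ± 0.0460 FPKM and Slc16a10 at 0.172 ± 0.0265, so the deiodinase had moved below the carrier. In siKEAP1/siCCNF cells they were at 0.105 ± 0.0208 and 0.139 ± 0.0142 FPKM.

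Over the 12 libraries, the genes most like Dio2 in log2 CPM by Pearson r included Retreg1 (0.979), Arhgef2 (0.979), Pitx3 (0.978) and Aldh18a1 (0.977). Pitx3, which encodes a homeobox factor expressed in the muscle lineage, averaged 19.4, 2.58, 1.27 and 1.53 CPM in siCONTROL, siKEAP1, siCCNF and siKEAP1/siCCNF. For Thra they were Aoc3 (0.991), Fkbp14 (0.989), Poldip2 (0.988), Lpcat1 (0.988) and Col6a2 (0.988). Col6a2, a collagen VI chain gene, averaged 670 CPM in siCONTROL, 240 in siKEAP1, 652 in siCCNF and 442 in siKEAP1/siCCNF, the same order as Thra but for its 2 highest groups.

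For Klf9 they were Ahnak2 (0.984), Syne1 (0.966), Mob1b (0.963), Dock8 (0.962) and Kif16b (0.958), and for Slc16a10 they were Primpol (0.96), Mif4gd (0.942), Cep83 (0.939), Rab21 (0.939) and Katnbl1 (0.936). Between members, r was -0.814 for Thra and Klf9, 0.791 for Slc16a10 and Klf9, and 0.202 for Dio2 and Thra. The points share 4 groups, so these values describe group patterns and carry no test.

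The other genes of the pathway numbered 71, of which 55 were tested. After siKEAP1, 10 rose (18.2%) and 14 fell (25.5%), with a median log2 fold change of -0.06 against -0.01 over all genes. When siKEAP1/siCCNF was compared with siKEAP1, 15 rose and 16 fell, with a median of -0.08 against 0.0013 over all genes. These shares were near those of all genes given above.

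Among the other carriers, 5 of 10 were tested. Slco4a1, an organic anion transporter that carries thyroid hormones, averaged 3.35 CPM in siCONTROL, 9.63 in siKEAP1, 3.00 in siCCNF and 4.26 in siKEAP1/siCCNF. It rose after siKEAP1 (log2 fold change 1.52, SE 0.22, adjusted p = 8.52e-05 from edgeR) and fell in siKEAP1/siCCNF against siKEAP1 (-1.17, SE 0.21, adjusted p = 3.59e-04 from edgeR), as Klf9 did. Slc7a5, the light chain of the large neutral amino acid transporter, was far more abundant at 80.8 CPM in siCONTROL and fell in both comparisons (-0.32 and -0.28). Its heavy chain gene Slc3a2 rose by 0.17 in the second (adjusted p = 0.0371 from edgeR). Risers were 20% and fallers 20% of the 5 after siKEAP1, beside 20.4% and 20.2% of all genes. In the second comparison they were 20% and 40%, beside 24.1% and 26.9% of all genes. Of the binding proteins, Ttr had no counts, Serpina7 at most 1 and Crym, the cytosolic one, at most 12.

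Of 10 genes that ubiquitylate or deubiquitylate DIO2, 1 rose (10%) and 4 fell (40%) after siKEAP1, beside 20.4% and 20.2% of all genes. The riser was Usp20, a deubiquitylase (log2 fold change 1.33, from 27.6 to 69.6 CPM), and the fallers included Wsb1, an adaptor of the ligase that marks DIO2 (-0.49), and Elob (-0.39). With CCNF depleted as well, siKEAP1/siCCNF against siKEAP1, 5 rose (50%, beside 24.1% of all genes), led by Wsb1 (0.86) and Eloc (0.36). Usp20 alone fell (-0.44), or 10% beside 26.9% of all genes. Of 6 selenoprotein synthesis genes, Pstk, a kinase that acts on the selenocysteine transfer RNA, fell after siKEAP1 (-0.55). It was 16.7% of the 6, beside 20.2% of all genes that fell. Pstk (0.89), Trnau1ap (0.58) and Secisbp2 (0.52) rose in the second comparison, opposite to Dio2. They were 50% of the 6, beside 24.1% of all genes that rose.

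Of 8 coactivators, 1 rose (12.5%) and 2 fell (25%) after siKEAP1, beside 20.4% and 20.2% of all genes. Ppargc1a, a coactivator of mitochondrial genes, rose from 0.388 to 2.30 CPM (2.55), and Med1 (-0.40) and Thrap3 (-0.19) fell. Med1 passed narrowly (adjusted p = 0.0455 from edgeR) and its groups overlapped, with siCONTROL replicate 1 at 66.7 CPM. Ppargc1a was lower in siKEAP1/siCCNF than in siKEAP1 (-0.74), where Thrap3 rose (0.26). Each was 12.5% of the coactivators, beside 26.9% of all genes that fell and 24.1% that rose. Of 6 corepressors, Gps2 fell after siKEAP1 (-0.25), and Tbl1xr1 (-0.77) and Tbl1x (-0.42) fell in the second comparison. Falls were 16.7% and 33.3% of the corepressors in turn, beside 20.2% and 26.9% of all genes. The siKEAP1 and siCONTROL libraries of Gps2 overlapped (adjusted p = 0.0461 from edgeR).

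Of 6 tested genes for signals that act on Dio2, Adrb1, a beta-adrenergic receptor that raises cAMP, fell after siKEAP1 (-1.999), as did Gli2 (-0.58), and Foxo3 rose (0.40). Risers were 16.7% and fallers 33.3%, beside 20.4% and 20.2% of all genes. The siKEAP1 and siCONTROL libraries of Gli2 overlapped (adjusted p = 0.04 from edgeR). Of the same 6 genes, in siKEAP1/siCCNF against siKEAP1, Gli2 rose (1.34), and Gli1 (-1.32) and Creb1 (-0.83) were among those that fell. Risers were 16.7% and fallers 50% there, beside 24.1% and 26.9% of all genes. Creb1 encodes a factor that binds cAMP response elements, and binding to the Dio2 element printed above was not tested.

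**Figure D3:**
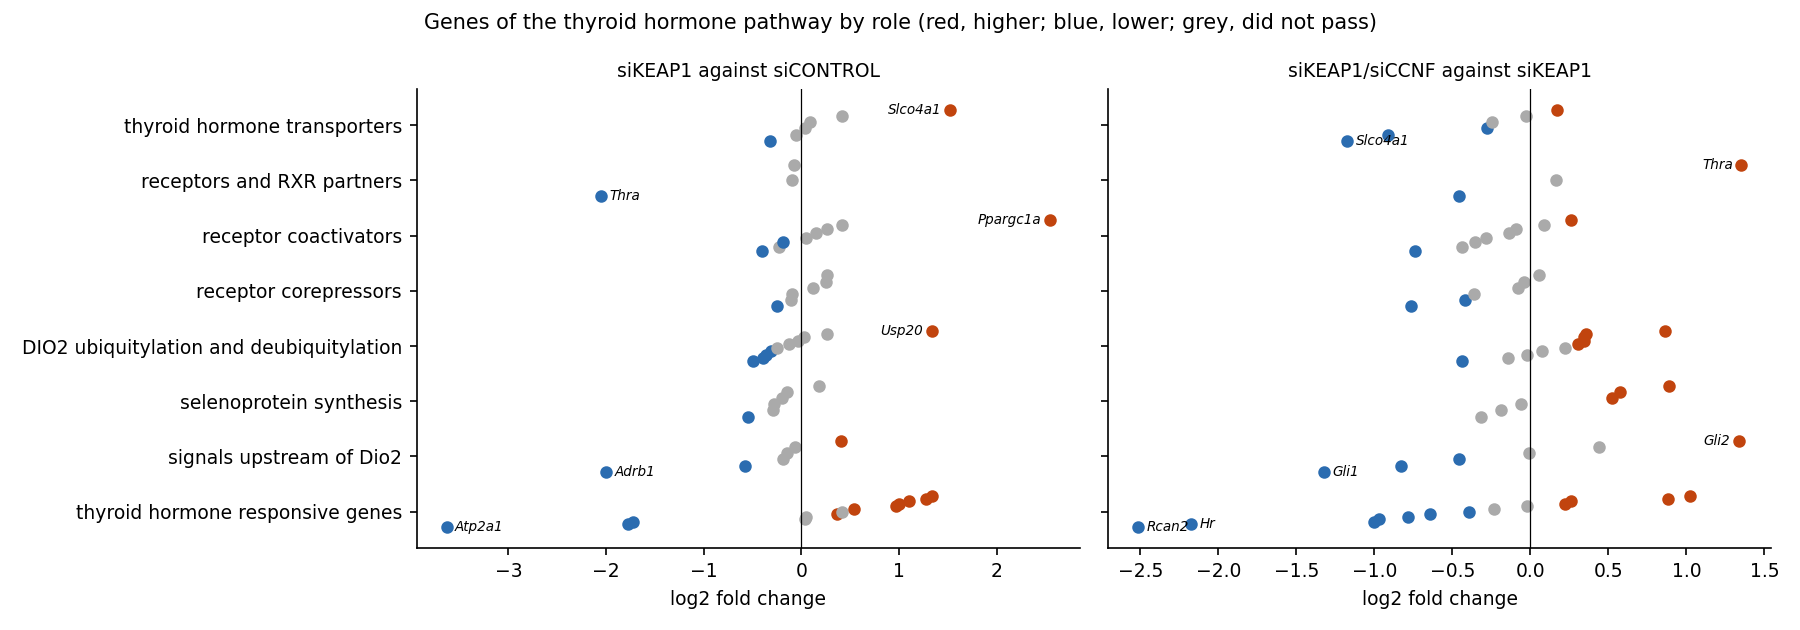
log2 fold changes (x axis) of tested pathway genes, including the members Slc16a10, Thra and Klf9, in rows by role, for siKEAP1 against siCONTROL (left) and siKEAP1/siCCNF against siKEAP1 (right), coloured where the adjusted p was under 0.05. Most roles hold both risers and fallers, and Slco4a1 goes from 1.52 on the left to -1.17 on the right while Thra goes from -2.05 to 1.35.

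The genes known to respond to the hormone in some tissue did not move together. Of the 12 tested beside Klf9, 6 rose (50%) and 3 fell (25%) after siKEAP1, beside 20.4% and 20.2% of all genes. The median log2 fold change of the 12 was 0.39. Hr, a corepressor gene directly induced by triiodothyronine, rose from 21.5 ± 3.32 to 54.3 ± 3.90 CPM (SD, n = 3; log2 fold change 1.34, SE 0.13, adjusted p = 3.50e-06 from edgeR). The other risers were Pdk4 (1.28) and Cpt1a (1.10), regulators of fuel oxidation, Me1 (0.97), Gpd2 (0.53) and Rcan2 (0.36). Me1 encodes malic enzyme and is also known as a target of NRF2. The fallers were the muscle genes Atp2a1 (-3.63), Slc2a4 (-1.78) and Myod1 (-1.73).

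Of these 12, 4 rose (33.3%) and 6 fell (50%) in siKEAP1/siCCNF against siKEAP1, beside 24.1% and 26.9% of all genes. Hr fell to 11.98 ± 2.26 CPM (SD, n = 3; -2.17, SE 0.14, adjusted p = 4.27e-08 from edgeR). Rcan2 fell by more, at -2.52, and Cpt1a (-0.97), Gpd2 (-0.78), Mbp (-0.64) and Me1 (-0.39) fell too. Atp2a1 (1.03), Bcl3 (0.88), Atp2a2 (0.26) and Myod1 (0.22) rose. Hr and Klf9 thus moved alike in these 2 comparisons. However, Hr also stood at 10.7 ± 0.442 CPM in siCCNF, below every siCONTROL library, where Klf9 overlapped siCONTROL. Such separation, lower after siCCNF, held for 28.6% of all genes tested.

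**Figure D4:**
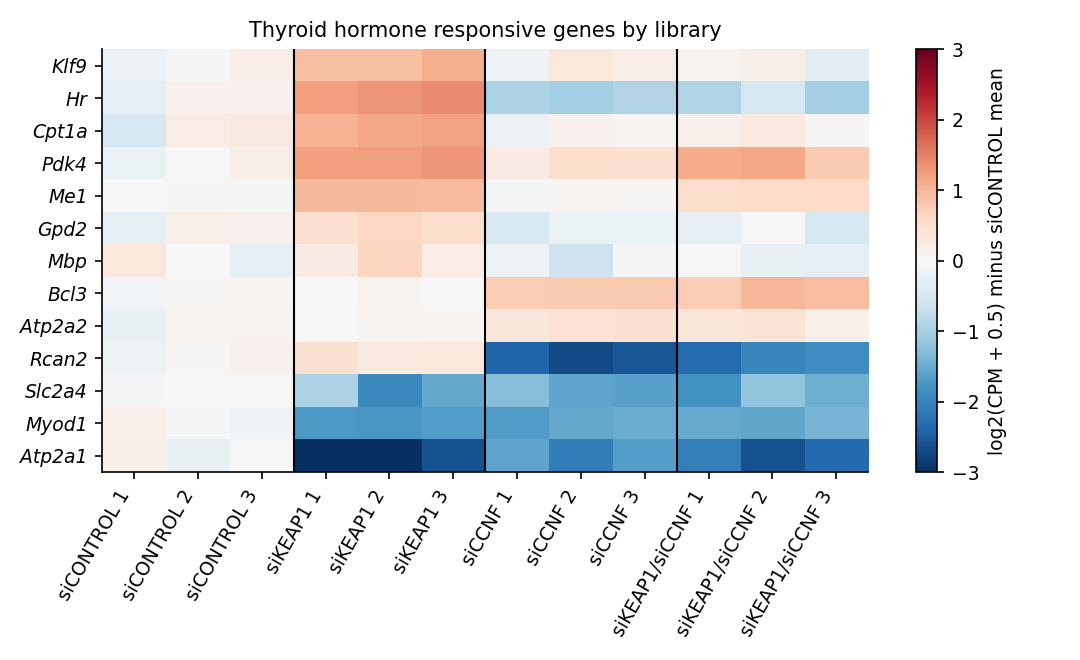
Thyroid hormone responsive genes (rows, Klf9 first) in the 12 libraries (columns, by group and replicate), coloured by log2(CPM + 0.5) minus the siCONTROL mean from blue (lower) to red (higher). Klf9, Hr, Cpt1a, Pdk4 and Me1 are red in siKEAP1, whereas Rcan2 is blue in siCCNF and siKEAP1/siCCNF and Atp2a1 and Myod1 are blue in all 3 depleted groups.

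Markers of the muscle lineage moved beside these genes. The 7 myoblast markers summed to 1622 to 1835 CPM in siCONTROL, 1077 to 1099 in siKEAP1, 807 to 839 in siCCNF and 801 to 876 in siKEAP1/siCCNF. The 15 muscle differentiation genes summed to 97.5 to 208 CPM in siCONTROL, with replicate 1 highest, 7.68 to 7.85 in siKEAP1, 36.1 to 51.6 in siCCNF and 17.3 to 19.7 in siKEAP1/siCCNF. All 11 tested differentiation genes fell after siKEAP1, as did 6 of the 7 myoblast markers, beside 20.2% of all genes. In the comparison of siKEAP1/siCCNF with siKEAP1, where Dio2 fell, 5 of the 11 differentiation genes rose and none fell, whereas 4 of the 7 myoblast markers fell and 1, Myod1, rose. Of all genes, 24.1% rose and 26.9% fell there. Fewer cells in a state and less RNA per cell cannot be told apart in bulk RNA. The part of the differentiation state in the levels of Dio2, Thra, Slc16a10 and Klf9 was not tested.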

How the data were processed

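Total RNA of siRNA-treated C2C12 cells was enriched for polyadenylated RNA and sequenced. The authors deposited raw read counts and FPKM per gene. HISAT2 and GRCm39 are named in the submitters' processing notes, but 53499 of 54409 shared genes had the same start and end as in GRCm38 (GENCODE M21), so coordinates are given as in the table. The counting tool is not given in the sources used here.

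The members and gene lists were chosen with earlier results of these data known. Named beside the members were tested genes of the deiodinase, carrier, binding protein, receptor and responsive lists, and the 5 genes most correlated with each member. Of the other lists, up to 2 largest rises and 2 largest falls per comparison were named. Secisbp2 was named after its values were seen, and Per1 was also named outside this rule. A few genes that this rule would name are not reported here. Counts were filtered with filterByExpr, scaled by TMM and fitted with edgeR 4.0.16 (R 4.3.3) quasi-likelihood tests, with 4 group means over all 12 libraries and Benjamini-Hochberg adjustment over 15122 genes (calls at adjusted p under 0.05). The script was tested on simulated data. DESeq2 1.42.0, limma 3.58.1 on log2(FPKM + 1 or 0.1), other filters, a replicate block and leaving out libraries were alternatives. Library pairs correlated at 0.9385 to 0.9928 and none were identical.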

Additional observations from a re-analysis of the deposited data

Results flagged for a closer look

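For Thra and Klf9 the effect of siCCNF differed between KEAP1-depleted and control cells by the interaction term. Keap1 was less depleted in siKEAP1/siCCNF than in siKEAP1, and the part of this in the term was not tested. For Thra the difference of effects was 1.20 in log2 units (SE 0.13, adjusted p = 3.74e-05 from edgeR), with log2 fold changes for siCCNF of 1.35 in KEAP1-depleted cells and 0.15 in control cells. All 3 siKEAP1/siCCNF libraries were above all 3 siKEAP1 libraries. For Klf9 it was -1.15 (SE 0.22, adjusted p = 0.00262 from edgeR), with -1.002 in KEAP1-depleted cells and 0.15 in control cells, and all 3 siKEAP1/siCCNF libraries were below all 3 siKEAP1 libraries. The share of all genes with libraries separated in this way was not counted. Over 20 alternatives the adjusted p stayed at or below 0.000245 for Thra and 0.00945 for Klf9.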

How the results depend on the processing

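Leaving out 1 library at a time gave 420 unchanged values or calls, with 4 moved, 4 reversed and 4 weaker. The other alternatives gave 302 unchanged, with 10 moved, 5 reversed and 1 weaker. The tests of Thra and of Slc16a10, and those of Klf9 that passed, kept their direction and their side of the threshold throughout. For Dio2 in siKEAP1/siCCNF against siKEAP1, leaving out libraries gave -1.14 to -0.84, and limma on log2(FPKM + 1) gave -0.12 (adjusted p = 0.115), a scale on which low genes change less by construction. On log2(FPKM + 1) and log2(FPKM + 0.1) the untested Dio2 differences were -1.14 and -2.53 (siKEAP1 against siCONTROL), -1.27 and -3.15 (siCCNF), -1.26 and -3.10 (siKEAP1/siCCNF), and 1.15 and 2.58 (difference of effects, 3.12 from edgeR and 2.87 to 3.49 with libraries left out). Dio2 in siKEAP1/siCCNF against siCCNF ran from -0.16 to 0.46 with libraries left out.

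The near-zero Klf9 difference of siKEAP1/siCCNF from siCONTROL changed sign with DESeq2 (0.00099), at least 10 counts in every library (0.015), the compared groups alone (0.0023), siCONTROL replicate 1 and siKEAP1/siCCNF replicate 3 left out together (0.036) and libraries left out singly (-0.12 to 0.13). The cause was not tested. Pathway genes called lower after siKEAP1 numbered 9 instead of 14 with the compared groups alone and 9 to 16 with libraries left out singly (9 without siKEAP1 replicate 3), and 21 without both libraries that deviated with gene length. Those higher in siKEAP1/siCCNF against siCCNF numbered 4, or 2 to 4 with libraries left out singly (2 without siCCNF replicate 1 or siKEAP1/siCCNF replicate 2) and 6 without those 2 libraries. Those higher in the difference of effects numbered 6, or 16 without the same 2 libraries.

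Samples were not treated as paired by replicate number in the main fit. Over 18 same-numbered pairs the correlation of deviations ran from -0.268 to 0.204, and 4 were above 0.1. Of 12 libraries, 6 correlated best with their own number, so these values do not settle whether samples were paired. With the replicate block Dio2 in siKEAP1/siCCNF against siKEAP1 was -0.97 (adjusted p = 0.035 from edgeR), the Klf9 difference from siCONTROL changed sign (0.00054), and no member's call changed. Depth limited Dio2 (13 to 31 counts in depleted cells), Slc16a10 and Thrb.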

Other observations

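Klf9 also belongs to lists that the comparisons above did not use. Of the other 13 KLF family genes tested, 4 rose (30.8%) and 1 fell (7.69%) after siKEAP1, beside 20.4% and 20.2% of all genes. Klf8 (log2 fold change 1.08) and Klf12 (0.91) were the largest rises and Klf16 (-0.25) the fall. When siKEAP1/siCCNF was compared with siKEAP1, 7 fell (53.8%, beside 26.9% of all genes), led by Klf2 (-1.74) and Klf12 (-1.59). Klf15 alone rose (1.35), or 7.69% beside 24.1% of all genes. Klf15 counts were low, at 3 to 10 in siKEAP1 and 15 to 25 in siKEAP1/siCCNF. Those of Klf8 and Klf12 were low too, at most 43 and 90 in siKEAP1. Klf9 is a known glucocorticoid target too. Of the other 6 tested genes that respond to glucocorticoid, Sgk1 (1.21), Dusp1 (0.72) and Per1 (0.47) rose after siKEAP1 and Tsc22d3 (-1.22), a standard marker of that hormone, fell. Risers were 50% and fallers 16.7% of the 6, beside 20.4% and 20.2% of all genes. Tsc22d3 was higher (0.86) in siKEAP1/siCCNF than in siKEAP1, and Sgk1 (-0.50) and Dusp1 (-0.56) fell. Risers were 16.7% and fallers 33.3% of the 6 there, beside 24.1% and 26.9% of all genes.

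Nr1d2, the paralogue of Nr1d1 that lies near Thrb, rose after siKEAP1 (0.47) and fell in siKEAP1/siCCNF against siKEAP1 (-0.87).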
